A study of Mus musculus with 908 samples.

Results

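The cells described here are mouse skin squamous cell carcinoma cells sorted as positive for a fluorescent reporter and divided by the transcripts of 2 proliferation genes, Mki67 and Top2a. Each library is 1 cell, and 73 of 86 libraries on the plate CSC1 and 32 of 72 on the plate CSC2 had at least 2000 genes at 1 TPM or more, TPM being transcript abundance corrected for length and scaled to the same total in every library. In 18 of the kept cells both transcripts were at TPM 1 or more (called cycling here), in 67 both were under 1 (non-cycling), and 20 with only 1 of the 2 transcripts were left out. The 85 classified cells were chosen by measured expression out of 908 libraries in the whole series, 696 of which had at least 2000 genes.

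The study sorted tumour cells around an immunotherapy by infused T cells, adoptive cell transfer (ACT), and sequenced them singly by Smart-seq2. The reporter-positive cells came from mice of the strain TRE-HrasG12V;SBE-mCherry-PGK-rtTA3, in which the doxycycline-dependent activator rtTA3 drives an HrasG12V oncogene and SMAD-binding elements drive mCherry, a readout of TGF-beta signalling. They were negative for CD45, CD117, CD140a and CD31, positive for integrin α6, mCherry, CD34 and CD44, and taken before transfer from mice of mixed sex aged P60-P90, on plates named CSC1 and CSC2. A CD44-negative α6+ gate from the same strain (mCherry-, CD34- and CD44-) and mCherry+ tumour cells taken after transfer from the strain TRE-OVA;TRE-HrasG12V:PGK-rtTA3P2AmCherry, of the same ages and mixed sex, were used for comparison. In that second strain mCherry is driven with rtTA3 and does not report TGF-beta signalling. All 3 gates excluded the same 4 non-epithelial surface markers, and all mice carried the inducible HrasG12V. No label ties a cell to an animal, so each gate counted as 1 sample, no test was made, and every difference below describes these cells.

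The deposited libraries also went against their labels in 1 respect. For 97 of the kept reporter-positive cells, a library on the plates named OT_C and OT_D, which are labelled as taken after transfer, was the mutual best match, in each case with the same well name, at a median correlation of 0.92 between log2 profiles against 0.69 between other reporter-positive pairs. The lowest correlation of a matched pair was 0.67. These libraries were treated as technical repeats of the same cells and kept out of the after-transfer gate, for which the plates OT1 and OT2 were used. Within the reporter-positive plates, 1 pair of non-cycling libraries on CSC1 reached the limit of 0.88 and may be 1 cell.

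A cell that divides copies its DNA in S phase and separates the copies in mitosis. E2F factors switch on replication genes once the retinoblastoma (RB) proteins are inactivated by cyclin-dependent kinases, and the later mitotic genes are held down in resting cells by the DREAM complex, whose contact with DNA includes the CHR element, and are activated with B-MYB and FOXM1. In epidermis, basal keratinocytes divide and suprabasal cells leave the cycle as they differentiate, while TGF-beta restrains keratinocyte division, in part through the kinase inhibitor p15 encoded by Cdkn2b.

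Promoters of the leading cell cycle genes are shown because mitotic and replication genes differed in the letters they carry. RefSeq promoters (build GRCm38.p6) matched 50 of the 63 mitosis genes and 29 of the 38 replication genes called higher in cycling cells below. The motifs searched on both strands of the 300-base windows were the CHR (TTTGAA or TTCGAA), the CCAAT box (CCAAT) and an E2F motif (GGCGGGAA or GGCGCGAA) with matches of each counted separately also where they overlapped. The 4 windows below hold 200 bases upstream of the annotated transcripts of mitosis genes with a CHR and a CCAAT box there. Matches to either on both strands are in capitals. They were taken in order of difference. Genes were passed over by chromosome, by strand, or where the RefSeq start lay well inside the annotated gene. Of 79 promoters of the mitosis and replication genes, 70 were read on the sense strand of an annotated transcript.
Cdk1 (chr10:69352939-69353138, minus strand): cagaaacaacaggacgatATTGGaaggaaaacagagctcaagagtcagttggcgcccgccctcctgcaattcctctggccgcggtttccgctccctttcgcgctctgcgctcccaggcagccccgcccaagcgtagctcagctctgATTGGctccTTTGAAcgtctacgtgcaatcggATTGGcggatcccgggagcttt
Cdc20 (chr4:118437353-118437552, minus strand): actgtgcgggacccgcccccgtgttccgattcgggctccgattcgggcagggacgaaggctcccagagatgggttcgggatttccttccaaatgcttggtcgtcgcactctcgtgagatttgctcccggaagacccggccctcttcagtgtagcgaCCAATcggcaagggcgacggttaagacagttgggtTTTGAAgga
Ccnb2 (chr9:70421555-70421754, minus strand): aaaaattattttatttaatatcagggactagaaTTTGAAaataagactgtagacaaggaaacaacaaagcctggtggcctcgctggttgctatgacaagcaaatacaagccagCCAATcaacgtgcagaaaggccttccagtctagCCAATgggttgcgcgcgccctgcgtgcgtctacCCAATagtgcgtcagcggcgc
Smc2 (chr4:52439021-52439220, plus strand): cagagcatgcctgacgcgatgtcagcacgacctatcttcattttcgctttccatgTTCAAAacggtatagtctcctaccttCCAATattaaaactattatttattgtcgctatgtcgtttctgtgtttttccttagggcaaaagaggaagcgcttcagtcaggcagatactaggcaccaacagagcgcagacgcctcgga
Cdk1 encodes the mitotic kinase, Cdc20 an activator of the anaphase-promoting complex, Ccnb2 a cyclin partner of Cdk1, and Smc2 a condensin subunit. The replication genes Rrm1, which encodes the large subunit of ribonucleotide reductase, and Uhrf1, which encodes a factor for maintaining DNA methylation, are shown in the same way with only the E2F motif in capitals.
Rrm1 (chr7:102441495-102441694, plus strand): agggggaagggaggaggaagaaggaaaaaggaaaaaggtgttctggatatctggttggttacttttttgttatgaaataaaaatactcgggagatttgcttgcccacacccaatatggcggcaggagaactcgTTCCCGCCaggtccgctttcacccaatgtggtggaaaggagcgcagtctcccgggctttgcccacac
Uhrf1 (chr17:56303121-56303320, plus strand): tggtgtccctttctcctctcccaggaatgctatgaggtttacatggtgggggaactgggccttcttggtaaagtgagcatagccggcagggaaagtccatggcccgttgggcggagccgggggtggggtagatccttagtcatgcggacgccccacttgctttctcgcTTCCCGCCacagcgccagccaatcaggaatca
A CHR stood in 36 of the 50 mitosis promoters (72%), in 6 of the 29 replication promoters (20.7%) and in 13.9% of the 8858 promoters of genes compared. An E2F motif stood in 10 of the 29 replication promoters (34.5%), in 0 of the 50 mitosis promoters and in 5.34% of those of genes compared. CCAAT was common in both groups, at 76% and 65.5% against 39%. Among genes called higher outside the cell cycle set, 61 promoters held a CHR (19.8%) and 21 an E2F motif (6.82%). Among genes called lower, 14 promoters held a CHR (8%). Over all 27025 promoters of this length the shares were 19.4% for CHR, 37.9% for CCAAT and 2.77% for E2F. These are matches of letters and show no binding.

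Cycling cells made up 21.2% of the classified reporter-positive cells (18 of 85, exact binomial 95% interval 13.1 to 31.4%). The share was 15.5% on plate CSC1 (9 of 58, 7.35 to 27.4%) and 33.3% on plate CSC2 (9 of 27, 16.5 to 53.96%). These intervals cover counting error only. In the CD44-negative gate the same rule gave 31 of 59 cells, 52.5% (39.1 to 65.7%), and after transfer 28 of 110, 25.5% (17.6 to 34.6%). The difference between gates was not tested, since each is 1 sample.

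Mki67 (ENSMUSG00000031004, chr7:135689784-135716361 in GRCm38) encodes Ki-67, which coats mitotic chromosomes, and Top2a (ENSMUSG00000020914, chr11:98992943-99024189) encodes DNA topoisomerase II alpha. In cycling cells Mki67 ranged from 2.52 through a median of 17.1 to 34.02 TPM, and Top2a from 6.64 through 42.5 to 163.5 TPM. In 48 of the 67 non-cycling cells both were at 0. Just inside the cycling class the lower of the 2 values was 2.52, 3.47 and 4.82 TPM, and just outside it 0.74, 0.56 and 0.48. Just inside the non-cycling class the higher of the 2 was 0.93, 0.84 and 0.72 TPM, and just outside it 1.01, 1.09 and 1.17. In the repeat libraries 16 of 18 cycling cells were again cycling and 2 had only 1 transcript, and 60 of 61 non-cycling cells were again non-cycling.

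**Figure D1:**
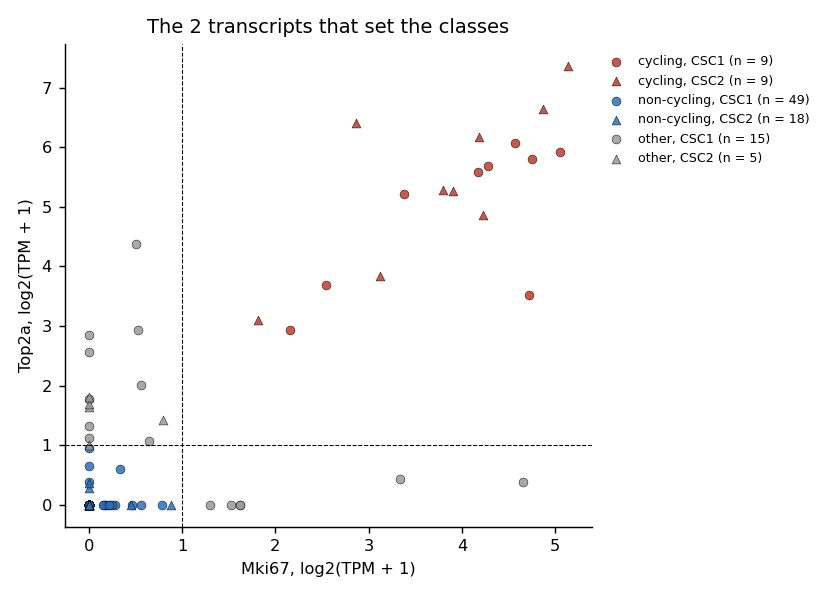
Mki67 (horizontal) against Top2a (vertical), both as log2(TPM + 1), with 1 point per reporter-positive cell, circles for plate CSC1, triangles for plate CSC2 and dashed lines at TPM 1. The 18 cycling cells (red) lie in the upper right corner, the 67 non-cycling cells (blue) in the lower left, and the 20 cells left out (grey) along the 2 sides.

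Both classes were keratinocytes by their transcripts. The summed level of 12 keratinocyte markers had a median of 16378 TPM in cycling cells (5919 to 37400) and 15565 TPM in non-cycling cells (5048 to 40978), and it was the highest of the 7 marker sums in all 85 cells. Medians for the fibroblast, pericyte or muscle, endothelial, T and NK cell, myeloid, and melanocyte or mast cell lists lay between 0 and 34.6 TPM in either class. Single non-cycling cells reached sums of 498.8 TPM for the myeloid and 483.6 TPM for the pericyte or muscle list. In non-cycling cells 8 of 12 myeloid, 8 of 10 fibroblast, 6 of 10 endothelial and 6 of 10 pericyte or muscle markers were detected. In cycling cells these counts were 6, 7, 2 and 6. Markers never detected in either class included Kdr and Tek (endothelial), Cd3e and Cd8a (T cell), Itgam and Adgre1 (myeloid), Myh11 (muscle), Dpt (fibroblast) and Sox10 (melanocyte). Cd34, which the sort required as protein, was detected in only 9 of 18 cycling and 21 of 67 non-cycling cells, whereas Cd44 was detected in all 85.

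Depth is unknown, because only TPM were used. The number of genes detected had a median of 8046 in cycling cells (2632 to 9780) and 7812 in non-cycling cells (2139 to 9180). On CSC1 the medians were 7723 and 7869, and on CSC2 8168 and 7393. Ribosomal RNA rows took a median of 71.4% of all TPM in cycling cells (15.7 to 81.6%) and 71.1% in non-cycling cells (20.8 to 81.8%), which lowers the TPM of every other gene. Since 9 of the 18 cycling but 18 of the 67 non-cycling cells were from CSC2, a difference over both plates also carries any difference between plates, and the leading genes are given for each plate. Exons of another annotated gene cover over 20% of Ube2c, Ccnd1, Tuba1b, Rad54b, Phlda1, Dusp5, Bnip3, Hist1h2ap and Hist2h3b, so their reads cannot be fully told apart.

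A gene was compared if detected in at least 10% of the 85 cells. Its difference is the mean log2(TPM + 1) of cycling cells minus that of non-cycling cells, and it was called higher if this was at least 1 over both plates and at least 0.5 on each, or lower if it was at most the same values below 0. Of 12232 genes, 658 (5.38%) were called higher and 1.9% lower. The median difference of all genes was 0.03, 0.01 on CSC1 and 0.13 on CSC2. In a broad cell cycle set, drawn from gene lists and name patterns, 46.2% of the genes compared were called higher and 1.13% lower (6 genes). Of the 11700 genes outside that set, some of which also have a role in the cycle, 3.52% were called higher and 1.94% lower.

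The genes of mitosis and G2/M stood furthest apart. Of 65 compared, 63 were called higher and 0 lower, with a median difference of 2.89 (3.09 on CSC1, 2.85 on CSC2). Ube2c, the ubiquitin-conjugating enzyme of the anaphase-promoting complex, ranged in cycling cells from 0 through a median of 189.1 to 341.8 TPM and in non-cycling cells from 0 through 0 to 41.3 TPM. Its difference was 5.96, the largest of the list, and 17 of 18 cycling cells exceeded the non-cycling median of 0. Cdk1 was detected in 17 of 18 cycling cells and 12 of 67 non-cycling cells, with a difference of 5.61. Ccnb1, cyclin B1, was detected in 17 and 3 cells, with a difference of 4.93. Birc5, which encodes survivin of the chromosomal passenger complex, was detected in 17 and 7 cells, with a difference of 5.06.

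Replication genes followed, with 38 of 47 called higher, 0 lower and a median of 1.71 (1.96 and 1.34 by plate). Tk1, thymidine kinase, ranged from 12.8 through 34.97 to 104.8 TPM in cycling cells and from 0 through 2.18 to 31.04 TPM in non-cycling cells, and 55 of the 67 non-cycling cells lay below the lowest cycling cell. Its difference was 3.47 (3.32 and 3.83 by plate). Mcm5, a subunit of the replicative helicase, was detected in all 18 cycling cells and in 20 of 67 non-cycling cells, with a difference of 2.95. Rrm1, whose promoter with an E2F match is shown above, was detected in 17 of 18 cycling and in 47 of 67 non-cycling cells, with a difference of 2.90. As shares, 70.1% of non-cycling cells had Rrm1 (57.7 to 80.7%) and 17.9% had Cdk1 (9.61 to 29.2%).

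Histones, chromatin proteins and tubulins were the next groups. Of 45 replication-dependent histone rows compared, 35 were called higher and 0 lower, with a median of 1.67. Hist1h2ap ranged from 0 through 151.1 to 14664 TPM in cycling cells and from 0 through 0 to 50.97 TPM in non-cycling cells, a difference of 5.62. Histone genes are near-identical copies, so the level of a single row is uncertain. Among 32 chromatin genes 20 were called higher and 0 lower, led by Hmgb2, a DNA-bending protein, at 1.27 through 19.04 to 248.1 TPM against 0 through 0.71 to 29.1 TPM and a difference of 3.13. Of 17 tubulin, stathmin and transport genes 11 were called higher and 0 lower, among them Tuba1b, an alpha tubulin, at 2.51 and Stmn1, the microtubule destabiliser stathmin, at 2.45. Among 24 DNA repair genes 8 were higher and 0 lower, among them Fancd2, of the Fanconi anaemia crosslink repair pathway, at 2.45.

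The mean log2(TPM + 1) over the 66 mitosis genes separated the classes almost fully. It lay between 0.84 and 4.86 in cycling cells (median 3.67) and between 0.11 and 1.16 in non-cycling cells (median 0.47), and 17 of 18 cycling cells exceeded every non-cycling cell. The mean over the 54 replication genes overlapped more, at 0.65 to 3.96 (median 2.65) against 0 to 3.39 (median 1.06), with 3 of 18 cycling cells above every non-cycling cell and 16 of 18 above all but 1 of them. Within the cycling class the mix varied. A CSC1 cell with 52 of 54 replication genes detected had the highest replication mean of the class, 3.96, and a mitosis mean of 2.01, with Mki67 at 3.47 and Top2a at 6.64 TPM. Another CSC1 cell had all 66 mitosis genes detected, a mitosis mean of 4.86 and Top2a at 66.4 TPM.

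Single cells stood apart from their class. On CSC2, 1 cycling cell with 2632 genes had a mitosis mean of 0.84, with 11 of 66 mitosis genes detected and Ube2c, Cdk1 and Ccnb1 at 0, and in its repeat library Mki67 was at 0 and Top2a at 21.7 TPM. Also on CSC2, 1 non-cycling cell with 8053 genes and both class transcripts at 0 had 48 of 54 replication genes detected, a replication mean of 3.39, and the highest non-cycling values of Ube2c (41.3 TPM), Cdk1 (37.5 TPM) and Mcm5 (20.9 TPM). Its repeat library again had 47 of 54 replication genes, with Mki67 at 0.25 and Top2a at 0 TPM. Among the cells left out, 1 CSC1 cell with Mki67 at 0.42 and Top2a at 19.8 TPM had the highest replication mean of any cell, 4.59. The rule by Mki67 and Top2a thus left some cells with replication transcripts outside the cycling class.

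**Figure D2:**
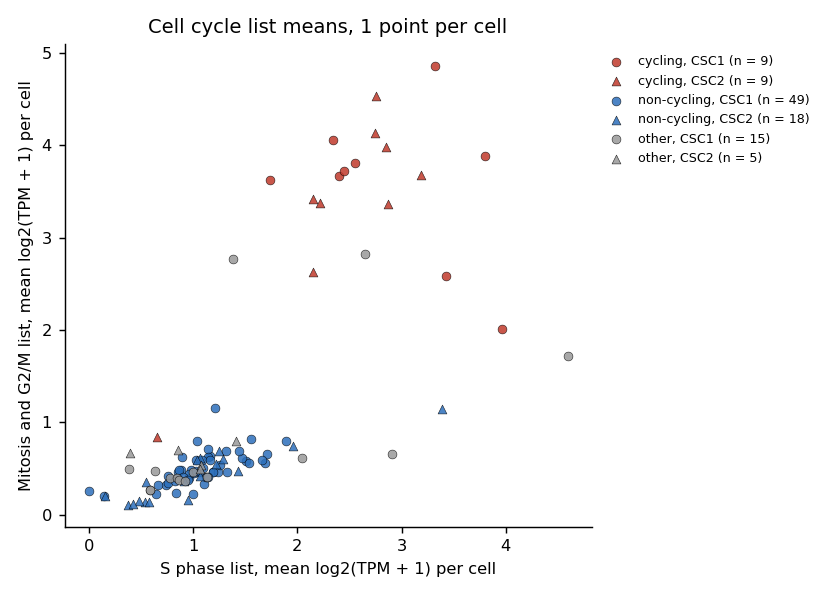
Mean log2(TPM + 1) over 54 S phase genes (horizontal) and 66 mitosis and G2/M genes (vertical), with 1 point per reporter-positive cell, coloured by class and shaped by plate. Of 18 cycling cells (red), 17 lie above all non-cycling cells (blue) on the mitosis axis, and 1 CSC2 non-cycling cell lies at 3.39 on the replication axis.

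Regulators of the cycle did not all follow the machinery. Of 28 genes for E2F, RB, D cyclins and kinase regulation, 8 were called higher, including Cdc25b, a phosphatase that activates Cdk1, at 2.87, Foxm1, a mitotic transcription factor, at 2.74 and Mybl2, which encodes B-MYB, at 2.58. Only Ccnd2, cyclin D2 (ENSMUSG00000000184, chr6:127125162-127152193), was called lower in that list. It ranged in cycling cells from 0 through a median of 11.97 to 173.2 TPM and in non-cycling cells from 0 through 91.3 to 1015 TPM. Of 18 cycling cells 16 lay below the non-cycling median, and the difference was -2.42 (-1.80 and -2.24 by plate). Cyclin D1, Ccnd1, had a mean of 70.3 TPM in cycling and 101.8 TPM in non-cycling cells and was not called, with a difference of -0.53, and Myc was not called at -0.39.

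Among 30 inhibitors and p53 targets 4 were called higher and 4 lower, and in the repeat libraries 2 and 2. Cdkn2a (chr4:89274471-89294653), which encodes the inhibitor p16 and the p53 activator p19ARF, ranged from 0 through 2.02 to 13.5 TPM in cycling cells and from 0 through 13.5 to 91.9 TPM in non-cycling cells. Of 67 non-cycling cells 33 lay above every cycling cell, and the difference was -2.003 (-1.99 and -1.75 by plate). Cdkn2b (chr4:89306299-89311039), the p15 gene next to it, ranged from 0 through 11.3 to 39.3 TPM against 0 through 25.2 to 139.95 TPM, with a difference of -1.15 (-1.05 and -0.86 by plate). The classes overlapped, with 3 cycling cells above the non-cycling median, and the call of Cdkn2b was lost with plates weighted equally (-0.96), without plate CSC1 (-0.86) and in the repeat libraries.

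The other lower members were Btg2, an antiproliferative gene, at -1.34 and Trp53inp1, a p53 target, at -1.21, neither of which was called without CSC1. The p21 gene Cdkn1a was lower by mean, 153.8 against 317.5 TPM, but not called, since its difference was -0.92 over both plates and -0.37 on CSC2. Higher members were Cdkn3, a phosphatase gene of the dividing cell, at 2.48, Cdkn2d at 1.73, Cdkn1b at 1.26 and Cdkn2c at 1.07, the last 3 encoding p19INK4D, p27 and p18, and Cdkn2c was not called without CSC2. Cdkn1b ranged from 0 through 3.66 to 26.1 TPM in cycling cells against 0 through 0.56 to 47.3 TPM, and 17 of 18 cycling cells exceeded the non-cycling median. In the repeat libraries Cdkn1b, Cdkn2c and Trp53inp1 were not called, and by the log2 ratio of mean TPM + 1 Cdkn1b was not.

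Some differentiation genes were higher in the cycling class. Of 25 suprabasal and cornified envelope genes compared, 7 were called higher (Krtdap, Dmkn, Sprr1b, Sprr2h, Krt10, Lypd3 and Krt1) and 1 lower, with a median difference of 0.42 (0.35 on CSC1, 0.00 on CSC2). In the repeat libraries of the same cells 3 were called higher and 3 lower, and Krt10, Dmkn, Sprr1b and Lypd3 were not called higher there. Sprr1b, Sprr2h and Lypd3 were not called with plates weighted equally (0.88, 0.96 and 0.86). Dmkn, Sprr1b and Sprr2h were not called without CSC1, and Krt10, Krt1, Sprr1b and Lypd3 not without CSC2. Krt10, Krt1, Sprr1b and Lypd3 were also not called under a stricter minimum of genes per library. That minimum left 17 cycling and 62 non-cycling cells. The cycling cell it removed, on CSC2 with 2632 genes, held 257.1 TPM of Krt10, 476.8 of Krt1, 1295 of Sprr1b and 195.8 of Lypd3. Krtdap (chr7:30787896-30791097), a secreted keratinocyte differentiation protein, ranged from 6.82 through 1176 to 5579 TPM in cycling cells and from 0 through 47.4 to 55576 TPM in non-cycling cells. Its difference was 2.89 (2.14 and 2.28 by plate), and 15 of 18 cycling cells exceeded the non-cycling median. Only 2 non-cycling cells lay above every cycling cell. The mean TPM ran the other way, 1425 in cycling against 1858 in non-cycling cells, where 1 CSC2 cell with 3500 genes held the 55576 TPM. On the log2 ratio of mean TPM + 1 Krtdap was thus at -0.38. Sprr1b, a cornified envelope precursor, did the same, at 1.28 by mean log2 and -0.57 by ratio of means.

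Krt10, the suprabasal keratin, ranged from 0 through 4.16 to 257.1 TPM against 0 through 1.77 to 62.96 TPM, with a difference of 1.18 (0.79 and 2.22 by plate). Levels of Krt10 were low in most cells of either class, and the difference was larger on CSC2, where 6 of 9 cycling and 4 of 18 non-cycling cells had it. Of 12 stress keratins and alarmins 2 were called higher, Krt16 and Krt6b, and 2 lower, Il1a, an alarmin cytokine, at -1.18 and Hmox1, heme oxygenase, at -1.12. Krt16, a keratin of hyperproliferative and wounded epidermis, ranged from 18.5 through 1596 to 9338 TPM against 0 through 310.63 to 11002 TPM, with a difference of 1.59 (1.08 and 1.25 by plate). Krt6b, its usual partner family, was at 1.91 (0.85 and 2.29 by plate). Without CSC2 neither Krt6b nor Hmox1 was called. On CSC2 the median Krt16 was 1685 TPM in cycling and 2454 TPM in non-cycling cells, opposite to the mean log2 there. Krt6b shares most of its sequence with Krt6a, so the split of reads between them is uncertain.

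The basal keratins Krt14 and Krt5 were not called. Krt14 ranged from 2913 through 6752 to 14087 TPM in cycling cells and from 1902 through 6577 to 13467 TPM in non-cycling cells, with a difference of 0.12 (-0.05 and 0.24 by plate) where the SD between cells was 0.65 and 0.61. Krt5 differed by 0.13. Of 19 basal genes compared 0 were called in either direction, near the shares of 3.52% higher and 1.94% lower outside the cell cycle set. Their median difference over both plates was -0.99, against -1.03 on CSC1 and 0.22 on CSC2, and it also carries any difference between plates. The integrin gene Itga6, whose protein the sort selected, differed by -1.70 on CSC1 and by 1.84 on CSC2.

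Of 3 simple epithelial keratins compared 2 were called lower and 0 higher. Krt18 (chr15:102028180-102032027), a simple keratin normally absent from epidermis, was detected in 5 of 18 cycling cells (27.8%, 9.69 to 53.5%) and 48 of 67 non-cycling cells (71.6%, 59.3 to 81.99%). It ranged from 0 through 0 to 428.2 TPM and from 0 through 16.7 to 309.1 TPM, with a difference of -1.98 (-1.35 and -2.02 by plate). The mean TPM did not differ in the same way, 44.5 against 45.01, and 3 of the 9 cycling cells on CSC1 had Krt18 detected. Its partner Krt8 was detected in 2 of 18 and 27 of 67 cells, with a difference of -1.26, not called without CSC2. Single genes called lower included Cldn4, claudin 4 of tight junctions, which ranged from 0 through 6.32 to 76.4 TPM against 0 through 57.7 to 1032 TPM, with a difference of -2.59 (-2.63 and -2.75 by plate). Epcam, an epithelial adhesion gene, was at -1.69 (-1.35 and -1.16 by plate).

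**Figure D3:**
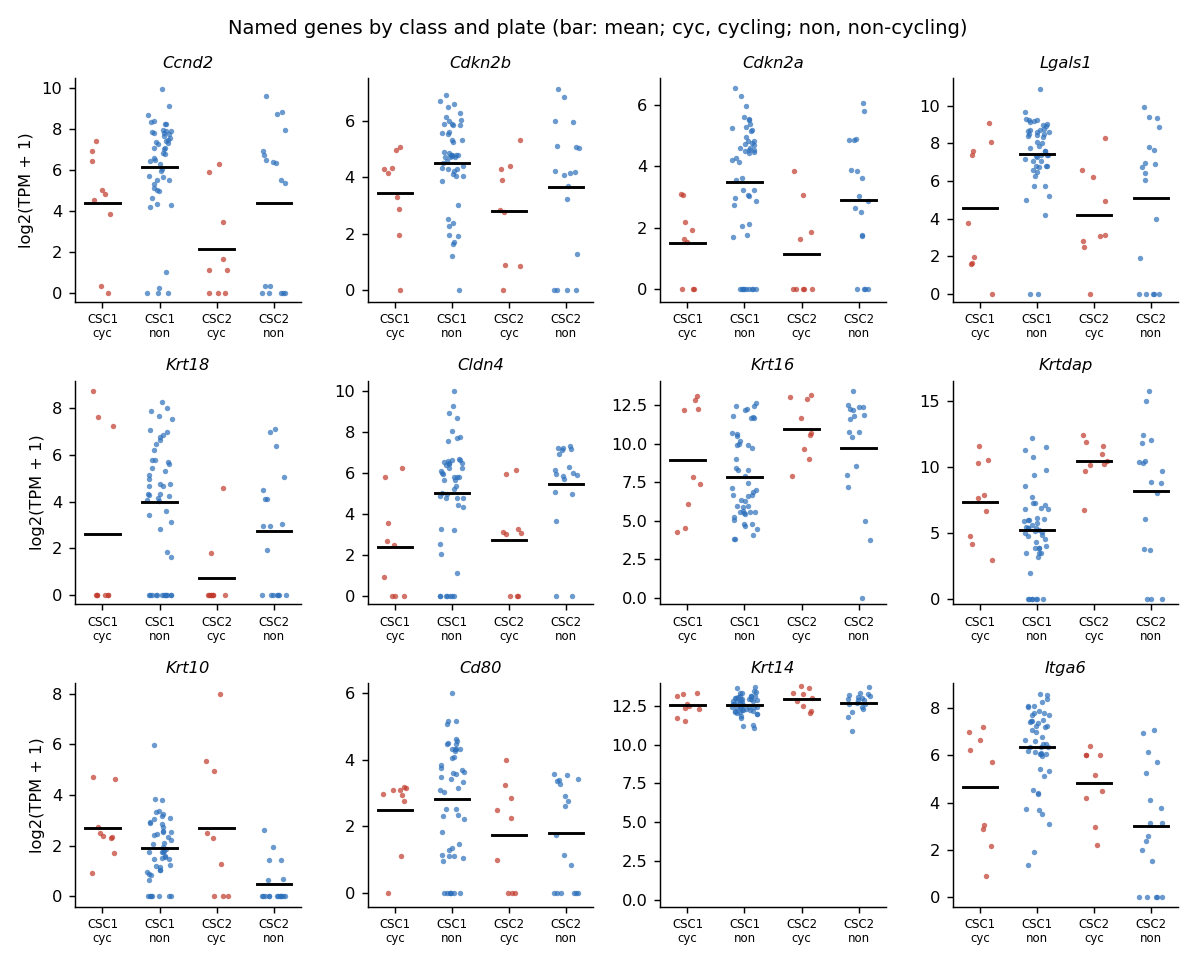
Expression of 12 named genes as log2(TPM + 1), with 1 point per cell, a bar at the mean, and 4 columns for cycling (red) and non-cycling (blue) cells on plates CSC1 and CSC2. Ccnd2, Cdkn2a, Krt18 and Cldn4 have lower means in cycling cells on both plates, Krtdap and Krt10 higher means, Krt14 similar means, and Itga6 opposite differences on the plates.

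No gene of the stem-like, matrix, TGF-beta or RAS and MAPK lists was called higher, where the share outside the cell cycle set was 3.52%. In lists this short, 0 calls lie near that share. Of 12 stem-like and transition genes compared only Lgals1, galectin-1 (chr15:78926725-78930465), was called. It ranged in cycling cells from 0 through 10.2 to 531.7 TPM and in non-cycling cells from 0 through 167.6 to 1899 TPM, with a difference of -2.45 (-2.89 and -0.92 by plate), and without CSC1 it was not called. Of 19 matrix and protease genes 3 were called lower, Sparc, a matrix-binding glycoprotein, at -1.70, Col4a2, a basement membrane collagen chain, at -1.64 and Plaur, the urokinase receptor, at -1.01. Over 26 TGF-beta response genes 0 were called higher and 3 lower, Pmepa1, a SMAD feedback inhibitor, at -1.58, Tgfb3, a ligand, at -1.21 and Cdkn2b. Without plate CSC1 Pmepa1 (-0.55), Tgfb3 (-0.70), Cdkn2b, Col4a2 (-0.63) and Plaur (-0.78) were not called, and Plaur was also lost without CSC2 and with plates weighted equally (-0.66). The ligand Tgfb1 was at -0.70 and not called, and the list median was -0.52 on CSC1 and -0.06 on CSC2.

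Of 22 RAS and MAPK feedback targets 3 were called lower and 0 higher. Dusp6, a phosphatase that inactivates ERK, ranged from 0 through 16.9 to 100.8 TPM against 0 through 45.1 to 168.9 TPM, with a difference of -1.40 (-1.27 and -1.24 by plate). Phlda1 was at -1.74 and Dusp5, a second ERK phosphatase, at -1.04, not called with plates weighted equally (-0.93) or without CSC2. Immediate early genes were lower in 6 of 19 cases and higher in 0, with a median of -0.76 (-0.77 and -0.40 by plate). Fos, a subunit of the AP-1 factor, ranged from 0 through 47.6 to 280.2 TPM against 0 through 133.4 to 564.6 TPM, with a difference of -1.65, and Dusp1, a stress-induced phosphatase, was at -1.79. Fos and Dusp1 kept their call under every alternative, but the other calls, Klf6, Zfp36, Fosl2 and Btg2, did not. Without CSC1 Klf6, Zfp36 and Btg2 were not called, and without CSC2 Fosl2 was not. With plates weighted equally Klf6, Zfp36 and Fosl2 were lost, and Fosl2 also in the repeat libraries.

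Several biosynthetic lists had a minority of genes called higher. Of 30 nucleotide and one-carbon genes 8 were called higher and 0 lower, with a median of 0.57 (0.91 and 0.45 by plate). Mthfd2, a mitochondrial folate enzyme, ranged from 0 through 11.7 to 32.1 TPM against 0 through 0 to 16.1 TPM, with a difference of 2.01, and 16 of 18 cycling cells exceeded the non-cycling median. Phgdh and Psat1 of serine synthesis were at 1.56 and 1.45, Pfas of purine synthesis at 1.44, and Shmt1 and Shmt2, which pass one-carbon units from serine, at 1.32 and 1.39. Of 30 nucleolar genes 5 were called higher and 0 lower, with a median of 0.70, led by Dkc1, a pseudouridine synthase, at 1.56. Of 24 chaperone genes 3 were called higher, including Hsph1 at 1.29. Of 29 sterol and fatty acid genes 3 were called higher, among them Elovl6, a fatty acid elongase, at 1.46, and 1 lower, the desaturase Fads2 at -1.25, which was not called with either plate left out, and in the repeat libraries 1 and 1. Without CSC1 Psat1 was not called, and without CSC2 Shmt1 was not. Dkc1, Hsph1 and Elovl6 were called neither in the repeat libraries nor by the log2 ratio of mean TPM + 1. In the repeat libraries 7 nucleotide and one-carbon, 5 nucleolar and 1 chaperone genes were called higher, but these were partly other genes. Nop56, Wdr43 and Wdr12 of the nucleolar calls were not called there either, and only Gnl3 was kept. The other chaperone calls, Stip1 and Hspa9, and the other higher sterol calls, Insig1 and Stard4, were also not called there. Oxidative phosphorylation subunits, with 1 of 78 called, and cytosolic ribosomal proteins, with 1 of 80, were below the share of all genes called higher.

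Of 30 hypoxia and glycolysis genes 3 were called lower, Bnip3, a mitophagy receptor, at -1.50, Vegfa at -1.35 and Car9, a carbonic anhydrase, at -1.16. Without CSC1 Vegfa, Car9 and Arg1, described next, were not called. Among 14 co-signalling and immunosuppression genes Nt5e, which encodes the adenosine-producing enzyme CD73, and Arg1, arginase 1, were called lower. Nt5e ranged from 0 through 8.16 to 26.3 TPM against 0 through 31.1 to 334.6 TPM, with a difference of -1.79 (-1.85 and -1.14 by plate), and all 18 cycling cells lay below the non-cycling median. Cd80, the CTLA4 ligand, was detected in 14 of 18 cycling cells (77.8%, 52.4 to 93.6%) and 52 of 67 non-cycling cells (77.6%, 65.8 to 86.9%), and its difference was -0.43 (-0.34 and -0.05 by plate) with an SD of 1.37 and 1.71 between cells. Cd274, which encodes PD-L1, was detected in 1 and 12 cells. Interferon response, MHC class I, MHC class II and desmosome lists, of 20, 20, 4 and 16 genes compared, had 0 called in either direction. Outside the cell cycle set 3.52% of genes were called higher and 1.94% lower, so 0 calls in lists this short lie near those shares.

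**Figure D4:**
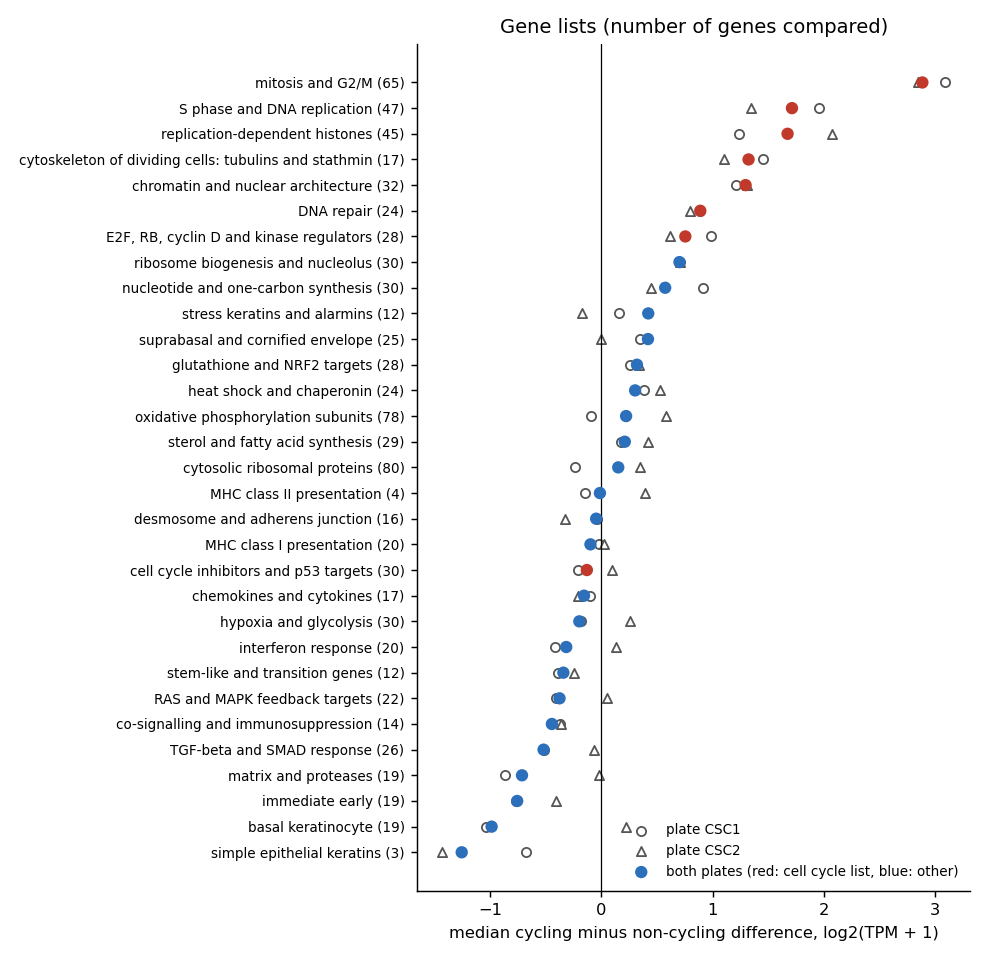
Median cycling minus non-cycling difference in mean log2(TPM + 1) for each gene list, over both plates (filled points, red for cell cycle lists, blue for others) and on each plate (open circles CSC1, open triangles CSC2), with the number of genes compared in brackets. The mitosis list stands at 2.89 and the simple epithelial keratins at -1.26, and the basal keratinocyte list has opposite signs on the plates.

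Outside the cell cycle set, the protein-coding genes with the largest positive differences included genes of replication and division that the set had missed. Among these were Traip, 2810417H13Rik and Pmf1. Ndc1, a nuclear pore membrane protein, was at 2.99, Traip, a ubiquitin ligase of the replication machinery, at 2.98, Arhgap19 at 2.97 and 2810417H13Rik, the PCNA-binding factor now named Pclaf, at 2.90. Dnajc9, a histone co-chaperone, was at 2.59 and Pmf1, a kinetochore subunit, at 2.41. Others were Krtdap, described above, Exosc8 of the RNA exosome at 2.58, 2700094K13Rik at 2.46, Lsm3 of the spliceosome at 2.39 and Has3, a hyaluronan synthase, at 2.37. Has3 ranged from 0 through 33.9 to 164.1 TPM against 0 through 1.44 to 167.99 TPM, with plate differences of 1.97 and 2.59. C330027C09Rik, now Cip2a, encodes an inhibitor of protein phosphatase 2A and was at 2.56.

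The most negative differences belonged to genes of varied function. Clu, clusterin, a secreted chaperone, ranged from 0 through 3.56 to 44.2 TPM in cycling cells against 0 through 34.97 to 1170 TPM, with a difference of -2.70 (-3.46 and -1.47 by plate). Crip1, a LIM-domain protein, was at -2.65, with 8 of 18 cycling and 55 of 67 non-cycling cells detected. Ahnak2, a large scaffold protein, was at -2.41 (-2.62 and -1.91 by plate), with 16 of 18 cycling cells below the non-cycling median. Trp53inp2, an autophagy regulator, was at -2.22, Fbxl20, an F-box protein, at -2.21, Dcxr, a carbonyl reductase, at -1.98, Tcn2, the cobalamin carrier, at -1.97 and Kctd11 at -1.92. Without CSC1 Trp53inp2 and Dcxr were not called, and in the repeat libraries Clu and Dcxr were not. Lgr6, a receptor that marks epithelial stem cells of skin, was detected in 2 of 18 cycling and 36 of 67 non-cycling cells, with a difference of -1.97.

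The repeat libraries measured these cells a further time. There 4.81% of 12420 genes were called higher and 2.64% lower. Of 655 of the higher genes compared in them, 650 had the same sign and 69.8% were called again. Of the lower genes, 96.98% had the same sign and 73.7% were called again. Since they were matched to the same cells, this bears on the repeat measurement and not on the number of cells.

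The same classes were compared in the other gates. The CD44-negative gate is 1 plate, so its calls had to pass on no second plate, whereas in the reporter-positive cells 5.94% of genes were at 1 or above and 2.71% at -1 or below before the condition on each plate. In the CD44-negative gate 7.85% of 11838 genes were called higher and 0.65% lower, and after transfer 11.7% of 11530 and 1.14%. The mitosis list had medians of 2.82 and 2.50 there, and the replication list 1.86 and 1.74. Of the genes called higher here and compared there, 59.6% of 658 were called higher in the CD44-negative gate and 63.3% of 646 after transfer. Outside the cell cycle set, which missed some genes of replication and division, these shares were 39.1% and 46.8%. Of those called lower here, 10 were called lower in the CD44-negative gate (4.78% of those compared there) and 6 higher (2.87%), and after transfer 15 were called lower and 15 higher (6.79% each). The difference between gates was not tested.

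Cycling cells in those gates had more genes detected, a median of 7347 against 6524 in the CD44-negative gate and 7278 against 6423 after transfer, and all genes had median differences of 0.19 and 0.32. In libraries of 6500 to 8500 genes, a range chosen after the data were seen, 72.0% of the genes called lower here were below 0 in the CD44-negative gate and 72.9% after transfer, where over all libraries the shares had been 57.9% and 42.5%. Of all genes, 45.02% and 45.1% were below 0 in that range, and 33.2% and 24.4% over all libraries. In that range 27 and 28 of the genes called lower here were at -1 or below, 12.8% and 12.2% against 2.32% and 1.90% of all genes. The part of gene number in these shares was not tested.

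Of the named genes, Ahnak2, Trp53inp2 and Tcn2 were called lower in all 3 gates, at -1.81, -1.69 and -1.14 in the CD44-negative gate and at -1.72, -1.72 and -1.34 after transfer. Ccnd2 was called lower in the CD44-negative gate at -1.28 but was at 0.65 after transfer. Cdkn1a, not called in the reporter-positive cells, was called lower in the others, at -1.03 and -1.53. Cdkn2a was at -0.0045 and 0.23 and Nt5e at 0.20 and 0.54, all not called. The suprabasal list, with a median of 0.42 here, had -0.43 in the CD44-negative gate and -1.05 after transfer, where 12 of its genes were called lower and 0 higher. Krt16 was called lower in both, at -1.20 and -2.59.

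**Figure D5:**
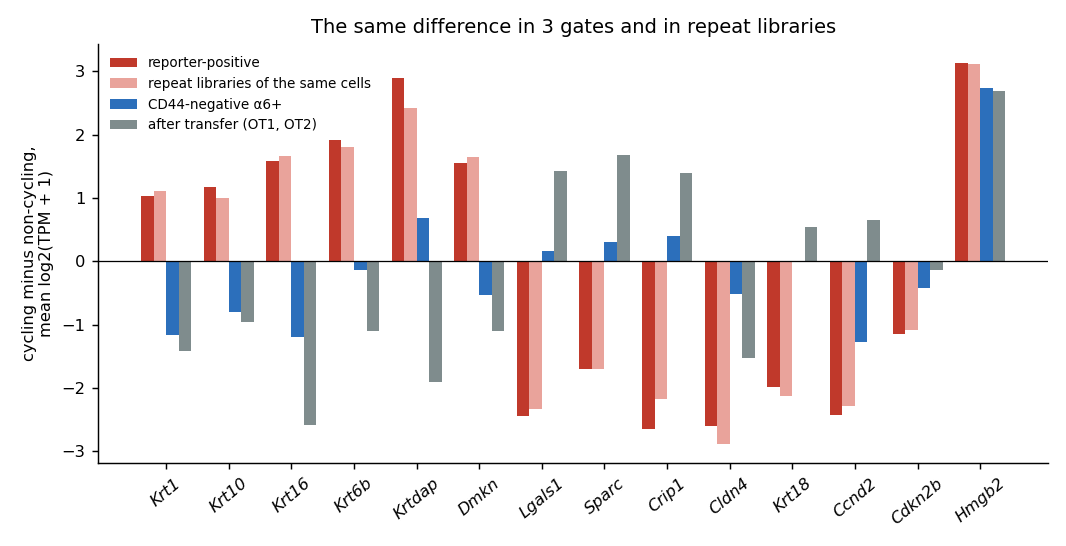
Cycling minus non-cycling difference in mean log2(TPM + 1) for 14 genes in the reporter-positive cells, their repeat libraries, the CD44-negative α6+ gate and cells after transfer (no bar where the gene was not compared). Hmgb2 is above 0 in all 4 sets, while Krt1 and Krt16 are above 0 in the reporter-positive cells and below 0 in the other 2 gates.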

How the data were processed

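Single cells had been prepared by Smart-seq2 and tagmented with Nextera XT, per the labels' protocols. The authors deposited TPM per gene, 46517 gene rows with 92 ERCC spike-in rows left out, and per the submitters' processing notes used Bowtie2 2.2.9, RSEM 1.2.30 and mm10. No source used here says how strand or repeated sequence was treated. Libraries with at least 2000 genes at TPM 1 or more were kept, and genes were compared in Python 3.11.15 with pandas 2.3.3 by mean log2(TPM + 1), pseudocount 1. With 1 sample per gate and no reads counted, no test was made. Intervals are exact binomial at 95% and cover counting error only. Calls need a difference of 1 over both plates and 0.5 on each. The comparison was run on simulated data to check that known differences were recovered. Genes were drawn there without plate or gene-number effects, so this does not test the calls made here. Gene positions are from GENCODE M21, which matched 46005 rows.

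Genes, beside the 2 of the rule and a fixed set of tumour and stem genes, were named as up to 4 called members of each list with the largest differences and, outside the cell cycle set, the 12 protein-coding genes furthest in each direction at a mean log2 of at least 2. Further called members of a described list were added. Members and lists were chosen with earlier results of these data known. The alternatives covered class limits, filters, scaling, plates and repeats. Il36a and Il36g of the alarmin list were not matched. Some genes of the lists are not reported here.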

Additional observations from a re-analysis of the deposited data

Results flagged for a closer look

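Several genes called in 1 direction in reporter-positive cells were called in the opposite direction in another gate. The difference between gates was not tested. Among genes higher in cycling reporter-positive cells, Krtdap (2.89) was at -1.90 after transfer, Dmkn (1.55) at -1.10 and Krt6b (1.91) at -1.09. Krt16 (1.59) was at -1.20 in the CD44-negative gate and -2.59 after transfer, and Krt1 (1.03) at -1.16 and -1.42.

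Among genes lower in cycling reporter-positive cells, Lgals1 (-2.45) was at 1.43 after transfer, Sparc (-1.70) at 1.69 and Crip1 (-2.65) at 1.39. Within the reporter-positive gate, Itga6 was at -1.70 on plate CSC1 and 1.84 on plate CSC2, a difference between plates that was not tested.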

How the results depend on the processing

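The cycling share was 33.3% without plate CSC1. The shares of compared genes called higher (5.38%) and lower (1.9%) moved with scale and plate. Higher and lower shares were 10.9% and 3.05% without plate CSC1, and 7.53% and 4.09% without plate CSC2. They were 12.9% and 5.78% with a pseudocount of 0.1, 0.907% and 0.188% with 10, and 8.27% and 3.88% after rescaling without ERCC, mitochondrial and ribosomal RNA rows. In libraries of 7304 to 8186 genes, with only 6 cycling cells, they were 10.1% and 10.2%. With a class limit of TPM 5 they were 5.90% and 3.12%, and by the ratio of means 4.505% and 5.12%. Of the main calls, 656 higher and 230 lower remained after rescaling, and 110 and 22 with a pseudocount of 10. The median of all genes moved to 0.13 without plate CSC1.

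Of 120 named genes called, 5 changed sign under at least 1 of 14 alternatives and 40 kept their call under all. By ratio of means Krtdap was at -0.38 and Sprr1b at -0.57. In the narrow gene-number window Hmox1 was at 0.36, Phgdh at -1.06 and Arg1 at 0.42. The range of 6500 to 8500 genes was chosen after seeing the data and gave 5.20% and 2.87%. With plates weighted equally the shares were 5.66% and 1.43%, and 94.5% of the higher and 69.96% of the lower main calls remained. No paired analysis was possible because the labels tie no cells to an animal and the result comes from no test. Depth is unknown, so a TPM of 0 does not show absence.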
